A study of Danio rerio with 14 samples.

Results

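Oxidative phosphorylation is the last stage of respiration in mitochondria. Complexes I and II pass electrons from NADH and succinate to ubiquinone, complex III hands them to cytochrome c, and complex IV gives them to oxygen. The protons pumped on the way drive ATP synthase, complex V. Most subunits are encoded in the nucleus and are joined in the organelle to a small set encoded by mitochondrial DNA, with the help of assembly factors that are not part of the finished enzyme, and tissues with a high demand for ATP, such as heart, muscle and retina, hold many mitochondria.

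The genes described here are the nuclear zebrafish genes whose symbol, in any case, starts with nduf, sdha, sdhb, sdhc, sdhd, uqcr, cox4, cox5, cox6, cox7, cox8, cyc1 or atp5. Of 32105 genes in the count files, 105 had such a symbol and 104 also had 10 or more counts in at least 3 libraries. The gene just outside, ndufa4l2b, had at most 6 counts in any library. Just inside were an SDHD copy (ENSDARG00000055712) with 11 to 30 counts, a COX6A1 copy (ENSDARG00000054588) with 3 to 41 counts and cox7a1 with 20 to 51 counts. All 104 were among the 21606 genes tested. The prefix takes in 38 subunits of complex I (7 catalytic core, 31 accessory), 5 of complex II, 9 of complex III, 17 of complex IV and 18 of complex V. It also takes in 3 genes of the NDUFA4 family, the related factor COX7A2L and 2 inhibitors of ATP synthase, and 11 assembly factors (7 of complex I and 4 of complex II) that are not subunits. Symbols are those of an identifier table, so capitals do not mark a species, and 6 members share their symbol with another identifier.

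The study measured RNA by sequencing in Tupfel longfin zebrafish embryos at 72 h after fertilization (hpf). The ahrra-null embryos carried a lesion made with zinc finger nucleases in ahrra, which encodes a protein that represses the aryl hydrocarbon receptor (AHR), and the other embryos were wild type. TCDD (2,3,7,8-tetrachlorodibenzo-p-dioxin) is a potent ligand of AHR. It was given at 2 nM for 1 h from 6 hpf, and the control embryos of both genotypes had the carrier alone, 0.01% DMSO, for the same time. There were 4 ahrra-null TCDD, 4 ahrra-null DMSO, 3 wild-type TCDD and 3 wild-type DMSO libraries. The labels do not say how many embryos or clutches a library holds, how many founders gave the null line, or whether null and wild-type embryos were related, so a p-value measures only the spread between these libraries, which may be technical, and genotype and line or clutch cannot be told apart. The tissue was whole embryos, in which fewer cells of a type and less RNA per cell cannot be told apart.

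Libraries held 16852240 to 23081186 counts, of which the 104 genes took 1.19 to 1.46% and the 13 mitochondrially encoded subunits 3.48 to 3.99%. Levels are in CPM, counts scaled to the effective size of their library, which are not per length and so are compared between samples only. A fold change is on the log2 scale with its standard error (SE), and a gene was called where edgeR's quasi-likelihood test gave a Benjamini-Hochberg adjusted p under 0.05 over all 21606 genes. Per-library values are listed by replicate number. The targeted gene, ahrra, averaged 43.1 ± 15.2 CPM in null TCDD, 1.14 ± 0.225 CPM in null DMSO, 17.5 ± 3.19 CPM in wild-type TCDD and 0.936 ± 0.402 CPM in wild-type DMSO libraries (SD, n = 4, 4, 3 and 3), so its RNA was not lost in the null and does not check the labels.

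The libraries differed in the level of the whole gene set within groups as well as between them. Each gene's log2 CPM was taken relative to its mean over libraries, and the median over the 104 genes gives a level for each library. It was 0.08, -0.04, -0.14 and -0.14 in null TCDD libraries (replicates 13 to 16), -0.02, -0.11, 0.06 and 0.05 in null DMSO libraries (replicates 9 to 12), 0.01, 0.00 and 0.03 in wild-type TCDD libraries (replicates 6 to 8), and 0.19, 0.06 and -0.01 in wild-type DMSO libraries (replicates 2 to 4). Wild-type DMSO replicate 2 stood highest, and 70 of the 104 genes had their highest level of all 14 libraries there. Null TCDD replicates 15 and 16 stood lowest, with 31 and 30 of the genes at their lowest. All 4 groups overlapped. The same median over all genes tested was between 0.00 and 0.01 in every library. The scaling of library sizes holds that median near 0, so it does not show that the shifts were particular to these genes. The share of all genes highest or lowest in each library is not given.

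**Figure D1:**
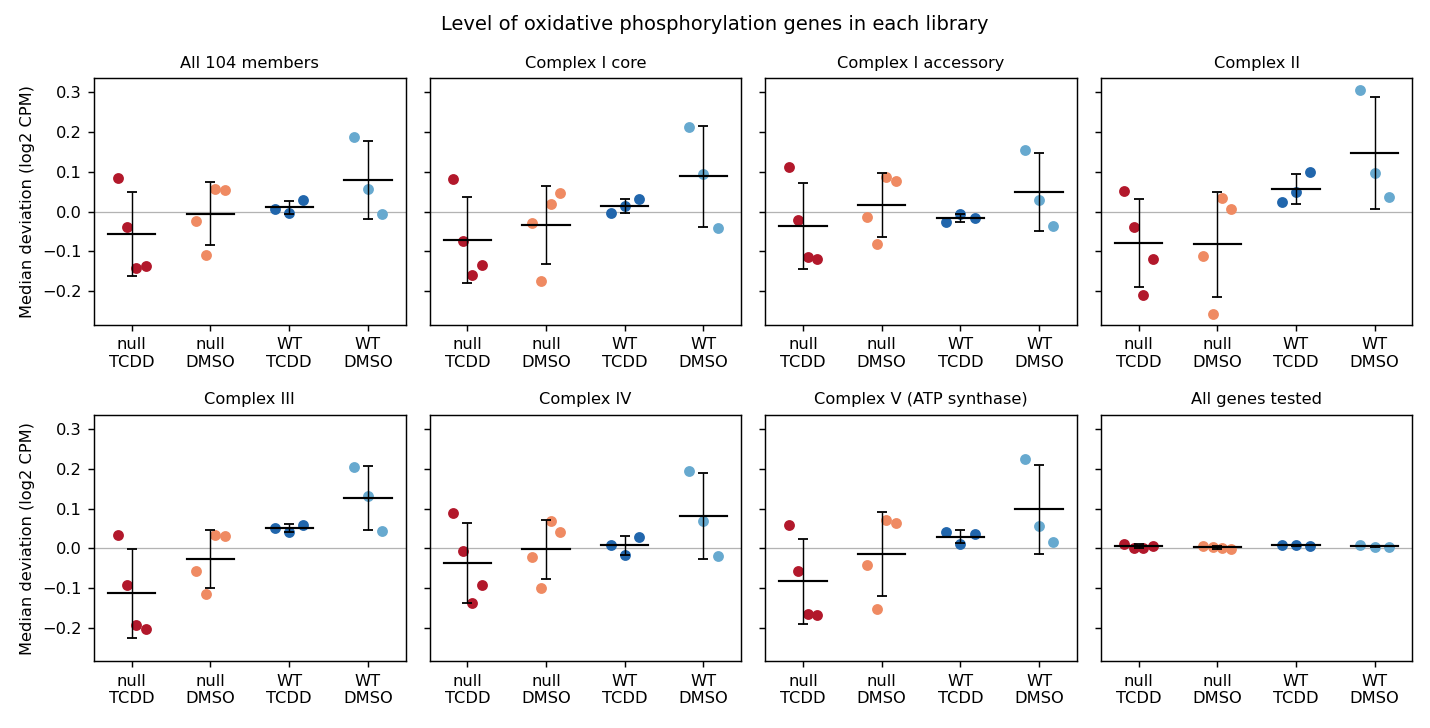
Median deviation of log2 CPM from each gene's mean over the 14 libraries (y axis), for all 104 genes, 6 classes of them and all genes tested, by group; points are libraries, lines group means and bars SD (n = 4, 4, 3 and 3). Wild-type DMSO replicate 2 is the highest point in each of the 7 panels of members, at 0.19 for all 104. The all-gene medians, which the scaling of library sizes holds near 0, lie between 0.00 and 0.01.

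TCDD gave no called member in either genotype. In ahrra-null embryos 0 of 104 were called, against 1.18% of all genes tested, and in wild-type embryos 0 of 104, against 0.856%. At an unadjusted p under 0.05 there were 5 members in null embryos (1 higher, 4 lower; 10.9% of all genes) and 7 in wild-type embryos (all lower; 8.35% of all genes). DESeq2 and limma-voom each called 1 member, higher, in null embryos, and called 1 and 2 members, lower, in wild-type embryos.

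Small negative fold changes prevailed in both. With TCDD, 89 of 104 members had a negative fold change in null embryos (median -0.06, against 0.00 for all genes) and 94 of 104 in wild-type embryos (median -0.08, against 0.00 for all genes). All 7 core subunits of complex I were negative in both, with medians of -0.06 in null and -0.07 in wild-type embryos, and in complex V 18 of 18 were negative in null and 16 of 18 in wild-type embryos. Both medians over the 104 members are smaller in size than the pooled SD between libraries of a group, 0.0849 for the median of the members. That SD describes single libraries and is larger than the SE of a difference between group means, which was not computed. Leaving out wild-type DMSO replicate 2 brought the wild-type median to -0.03, and leaving out replicate 4 brought it to -0.12. The lean was not particular to the members. With TCDD, 19 of 20 genes of the tricarboxylic acid cycle list, which includes pyruvate dehydrogenase genes, were negative in null and 17 in wild-type embryos. Of 22 glycolysis genes, 9 were negative in null and 20 in wild-type embryos (median -0.15). Their summed level was 5441 to 5660 CPM in wild-type TCDD libraries, within the 5365 to 6875 CPM of wild-type DMSO libraries. How far the lean of these other lists depends on a single library is not given. Of the 13 mitochondrially encoded subunits, 10 were negative in null but only 2 in wild-type embryos.

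The smallest adjusted p-values belonged to isoforms of complex IV. The gene cox4i1l, named as a relative of the regulatory COX4 subunit, had 13.8, 10.3, 7.32 and 11.8 CPM in null TCDD, against 5.96, 3.78, 5.22 and 7.92 CPM in null DMSO libraries. The groups overlapped in a single pair of libraries, and the fold change was 0.91 ± 0.21 with an adjusted p of 0.05002, just above the threshold; 8 of 16 alternative analyses called it. In wild-type embryos it had 2.54, 1.79 and 2.3 CPM with TCDD and 3.36, 3.42 and 2.48 CPM with DMSO, a difference of -0.47 ± 0.32 (adjusted p = 0.784).

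COX4I2, an isoform of that subunit that responds to low oxygen in mammals, had the smallest adjusted p in wild-type embryos. It had 20.7, 20.1 and 22.3 CPM in wild-type TCDD, against 30.4, 32.6 and 23.2 CPM in wild-type DMSO libraries. All 3 TCDD libraries were below all 3 DMSO libraries, with a fold change of -0.45 ± 0.11 (adjusted p = 0.0581). It was called in 5 of 14 alternatives, which were RLE scaling, DESeq2, voom, the surrogate variable and leaving out wild-type DMSO replicate 4 (adjusted p = 0.000552); the adjusted p was highest, 0.272, without replicate 3. In null embryos COX4I2 had 38.7, 32.8, 31.1 and 36.4 CPM with TCDD and 37, 36.1, 32.4 and 30.9 CPM with DMSO, which overlapped (0.03 ± 0.09, adjusted p = 0.951). The other large negative values in wild-type embryos were those of the COX6A1 copy ENSDARG00000054588 (-0.95 ± 0.31, adjusted p = 0.219) and cox8b (-0.61 ± 0.19, adjusted p = 0.201), both at a few CPM or less.

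The difference between genotypes in the response to TCDD, tested as an interaction, gave no call among the members or among all 21606 genes (0%). At an unadjusted p under 0.05 there were 4 members, all positive, against 5.17% of all genes. They were cox4i1l (1.38 ± 0.38), the SDHD copy ENSDARG00000055712 (0.85 ± 0.39), cox8b (0.82 ± 0.25) and COX4I2 (0.48 ± 0.14), with adjusted p-values of 0.872, 0.948, 0.876 and 0.906. Neither DESeq2 nor limma-voom called any member; COX4I2 was called without wild-type DMSO replicate 4 (adjusted p = 0.0499).

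**Figure D2:**
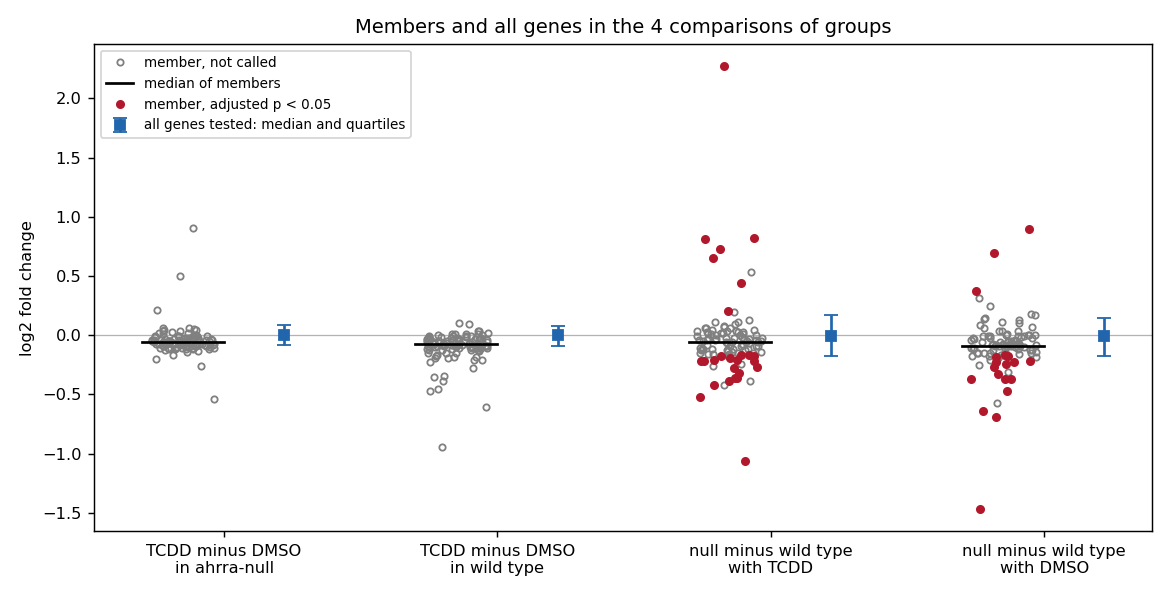
log2 fold change (y axis) of each of the 104 genes in the 4 comparisons of groups (x axis), called genes filled, with the members' median as a line and the median and quartiles of all genes tested as squares with bars. No member is called with TCDD in either genotype, and 26 and 19 are called between genotypes with TCDD and with DMSO.

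Between genotypes the calls were many, as they were over all genes. With TCDD, 7 members were higher and 19 lower in null than in wild-type embryos, which is 6.73% and 18.3% of the 104, against 12.7% and 13.1% of all genes tested. With DMSO, 3 were higher and 16 lower, which is 2.88% and 15.4%, against 9.91% and 11.7% of all genes. The share called at all, 25% with TCDD and 18.3% with DMSO, was no larger than the 25.8% and 21.6% of all genes. Of the members, 80 had an average log2 CPM of 5 or more, and of all 5718 genes at that level 34.8% were called with TCDD (17.3% lower) and 27.4% with DMSO (13.4% lower), so that the members' share of lower calls was near that of abundant genes and their share of higher calls was smaller. Lower calls outnumbered higher ones among the members in both exposures. Over all genes they were nearly equal in number with TCDD (2823 lower and 2754 higher). With DMSO, lower calls were also more numerous over all genes (2529 lower and 2141 higher). The difference between members and all genes was not tested. Fold changes were negative for 71 members with TCDD (median -0.06, all genes 0.00) and for 82 with DMSO (median -0.09, all genes -0.01).

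The split depended on the analysis with DMSO. Without wild-type DMSO replicate 2, the library highest in these genes, 1 member was higher and 8 lower (median -0.04), and all 9 were among the 19; without wild-type DMSO replicate 4 the number called was 25. With 1 surrogate variable in the model, 7 were higher and 5 lower (median 0.01). That variable was itself highest in wild-type DMSO replicate 2, and it was higher in most wild-type than in most null libraries. It was 0.57, 0.30 and -0.21 in wild-type DMSO, against 0.06, -0.26, -0.27 and -0.31 in null DMSO libraries. In wild-type TCDD libraries it was 0.10, 0.16 and 0.21, against 0.28, -0.14, -0.28 and -0.20 in null TCDD libraries. The variable thus overlapped in part with genotype, and what a model that holds it takes out was not tested. With TCDD the same model gave 7 higher and 14 lower, and leaving out wild-type TCDD replicate 8 gave 6 higher and 11 lower.

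Each genotype comparison shares libraries with both TCDD comparisons, so their values are not set against each other. The 2 genotype comparisons used different libraries, and 15 members were called in both, all in the same direction. They made up 57.7% of the calls with TCDD and 78.9% of those with DMSO; among all genes the shares were 58.4% and 69.8%. Of the 15, 13 were lower (SDHAF2, NDUFV1, SDHA, atp5mc1, ATP5MC3, atp5meb, uqcrc2a, UQCRC1, UQCRFS1, cox8a, NDUFAF4, ndufab1b and the COX6A1 copy ENSDARG00000054588) and 2 higher (ndufa4b and cox4i1l). SDHAF2, NDUFV1, SDHA, atp5mc1 and ndufa4b were called in both comparisons under all 15 alternatives of each. In all, 15 of the 26 calls with TCDD and 6 of the 19 with DMSO held under all 15. Those that held in 8 or fewer were NDUFA10, ATP5PD, atp5meb, UQCRC2 and the COX6A1 copy with TCDD, and NDUFA4L2, ATP5MC3 and ndufab1b with DMSO.

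**Figure D3:**
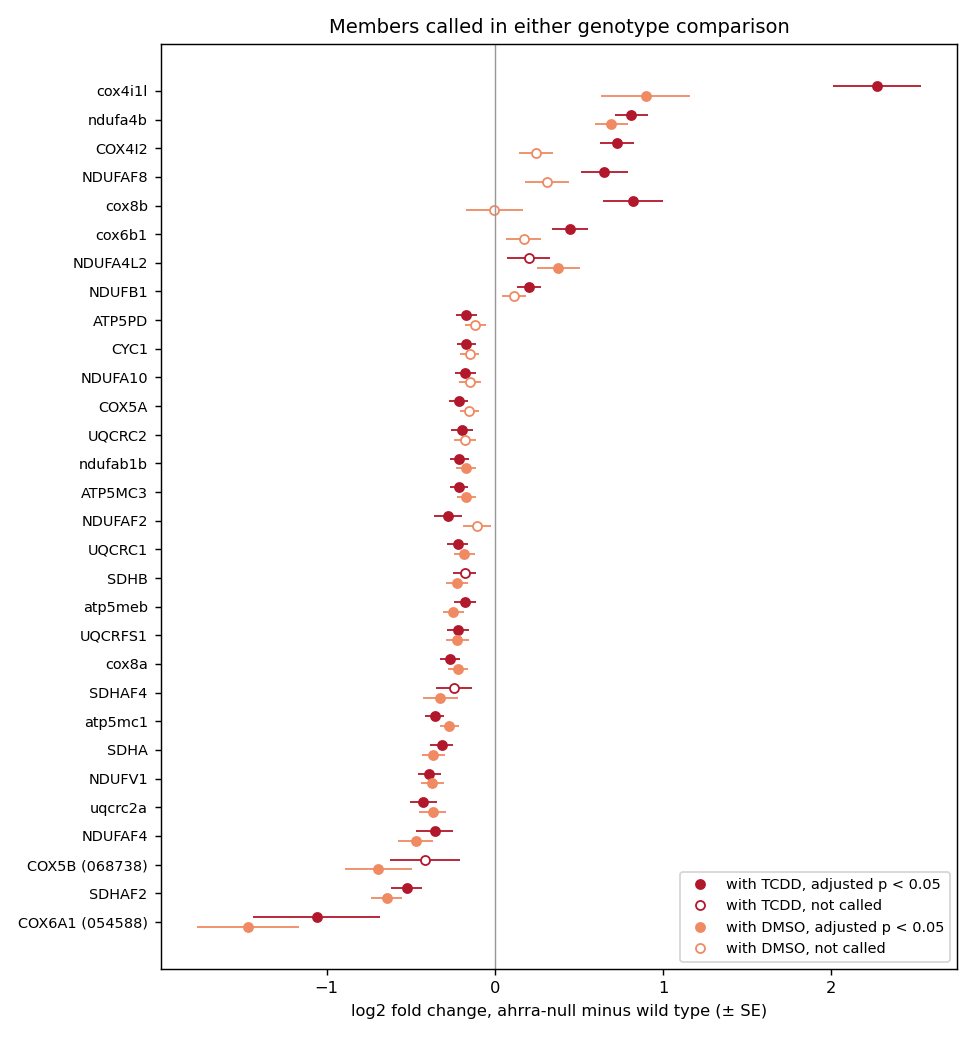
log2 fold change, ahrra-null minus wild type, with SE, for the 30 genes called in either genotype comparison; red with TCDD, orange with DMSO, filled where called. Of the 30, 22 lie below 0 with TCDD and 23 with DMSO, and cox4i1l with TCDD lies highest at 2.27.

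In complex I, 4 of 38 subunits were called with TCDD and 2 of 38 with DMSO (10.53% and 5.26%, against 25.8% and 21.6% of all genes). NDUFV1, the core subunit that oxidizes NADH, had 195, 176, 169 and 173 CPM in null TCDD, against 227, 226 and 248 CPM in wild-type TCDD libraries, and 186, 172, 185 and 204 CPM in null DMSO, against 269, 235 and 222 CPM in wild-type DMSO libraries. Every null library was below every wild-type library. The fold change was -0.39 ± 0.07 with TCDD (adjusted p = 0.000202) and -0.37 ± 0.07 with DMSO (adjusted p = 0.000445). The other 6 core subunits were not called in either exposure.

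Of the 31 accessory subunits of complex I, 3 were called with TCDD and 1 with DMSO. These were 9.68% and 3.23%, below the 25.8% and 21.6% of all genes. The median fold change of the 31 was 0.02 with TCDD and -0.03 with DMSO. The called gene in both was ndufab1b, the mitochondrial acyl carrier protein, lower by -0.21 ± 0.06 on the log2 scale with TCDD (adjusted p = 0.00935) and -0.17 ± 0.06 with DMSO (adjusted p = 0.0351). Its paralog NDUFAB1 was not called, at -0.16 and -0.10. NDUFA10 was lower with TCDD (-0.17 ± 0.06, adjusted p = 0.0455) and NDUFB1 higher (0.20 ± 0.07, adjusted p = 0.0385). Each was called in at most 10 of the 15 alternatives.

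Assembly factors of complex I went both ways. NDUFAF4 had 5.46, 6.5, 6.51 and 5.71 CPM in null TCDD, against 7.72, 7.83 and 7.71 CPM in wild-type TCDD libraries, and 7.1, 5.57, 6.98 and 6.18 CPM in null DMSO, against 8.85, 8.88 and 9.12 CPM in wild-type DMSO libraries. No null library reached a wild-type library of the same exposure (-0.36 ± 0.11, adjusted p = 0.0182 with TCDD; -0.47 ± 0.11, adjusted p = 0.00265 with DMSO). NDUFAF8 was higher in null TCDD, with 4.72 to 6.34 CPM, than in wild-type TCDD libraries, with 3.16 to 3.53 CPM (0.65 ± 0.14, adjusted p = 0.00118), and missed the threshold with DMSO (0.31 ± 0.13, adjusted p = 0.0943). NDUFAF2 was lower with TCDD (-0.28 ± 0.08, adjusted p = 0.0133) and was not called with DMSO (-0.11 ± 0.08).

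Complex II, succinate dehydrogenase, also belongs to the tricarboxylic acid cycle. SDHA, its flavoprotein, had 180, 163, 151 and 158 CPM in null TCDD, against 200, 205 and 204 CPM in wild-type TCDD libraries, and 163, 151, 160 and 181 CPM in null DMSO, against 230, 212 and 192 CPM in wild-type DMSO libraries. The genotypes did not overlap in either exposure, with fold changes of -0.32 ± 0.07 with TCDD (adjusted p = 0.00136) and -0.37 ± 0.07 with DMSO (adjusted p = 0.000462). SDHB, the iron-sulfur subunit, was lower with DMSO (-0.22 ± 0.07, adjusted p = 0.0201) and missed the threshold with TCDD (-0.18 ± 0.07, adjusted p = 0.0561). The membrane anchors SDHC and SDHD were not called.

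The factor that attaches the flavin to SDHA, SDHAF2, was lower in both exposures. It had 18.3, 19.5, 20.3 and 17.2 CPM in null TCDD, against 27.1, 30.1 and 24.1 CPM in wild-type TCDD libraries, and 18.4, 17.6, 17.9 and 19 CPM in null DMSO, against 33.6, 26.6 and 25.2 CPM in wild-type DMSO libraries. All 8 null libraries were below all 6 wild-type libraries (-0.52 ± 0.09, adjusted p = 0.000207 with TCDD; -0.64 ± 0.09, adjusted p = 2.69e-05 with DMSO). SDHAF4, a chaperone of the flavinated SDHA, was lower with DMSO (-0.32 ± 0.11, adjusted p = 0.0307) and was not called with TCDD (-0.24 ± 0.11, adjusted p = 0.101).

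Complex III had the highest share of called subunits among the complexes with TCDD, 5 of 9, all lower, and 3 of 9 with DMSO, all lower. These were 55.6% and 33.3%. Of all genes, 25.8% and 21.6% were called, 13.1% and 11.7% lower. Its median fold change was -0.17 with TCDD and -0.15 with DMSO, and 8 and 9 of the 9 were negative. The core protein gene uqcrc2a had 58.3, 52.6, 48.7 and 53.7 CPM in null TCDD, against 71.2, 67.7 and 75.8 CPM in wild-type TCDD libraries, and 63.4, 53.4, 56.1 and 66.1 CPM in null DMSO, against 86.1, 76.9 and 68.6 CPM in wild-type DMSO libraries. The genotypes stayed apart in each exposure (-0.42 ± 0.08, adjusted p = 0.000631 with TCDD; -0.37 ± 0.08, adjusted p = 0.00257 with DMSO).

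The other complex III genes called in both exposures differed less. UQCRC1, the other core protein, was at -0.22 ± 0.06 with TCDD (adjusted p = 0.0104) and -0.18 ± 0.06 with DMSO (adjusted p = 0.0366). UQCRFS1, the Rieske iron-sulfur protein, was at -0.22 ± 0.07 with TCDD (adjusted p = 0.0165) and -0.22 ± 0.07 with DMSO (adjusted p = 0.0187). UQCRC2, the paralog of uqcrc2a, and CYC1, cytochrome c1, were lower with TCDD (-0.19 ± 0.07, adjusted p = 0.0321; -0.17 ± 0.06, adjusted p = 0.0282) and just missed the threshold with DMSO (adjusted p = 0.0531 and 0.0578). UQCRB, a small subunit near the ubiquinone site, was not called in either (-0.12 with TCDD and -0.07 with DMSO).

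Complex IV, cytochrome c oxidase, held most of the members that were higher in null embryos, 4 of the 7 with TCDD, and 3 of its subunits were lower. With DMSO 1 was higher and 3 were lower. Of its 17 subunits, 41.2% were called with TCDD and 23.5% with DMSO, against 25.8% and 21.6% of all genes. Several of its subunits exist as isoforms.

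Of the COX4 isoforms, cox4i1l had the largest fold change of all members with TCDD. Its 7.32 to 13.8 CPM in null TCDD stood against 1.79 to 2.54 CPM in wild-type TCDD libraries (2.27 ± 0.26, adjusted p = 2.44e-05), and its 3.78 to 7.92 CPM in null DMSO stood against 2.48 to 3.42 CPM in wild-type DMSO libraries (0.90 ± 0.26, adjusted p = 0.0254). The genotypes did not overlap in either exposure, and the DMSO call held in 10 of 15 alternatives. COX4I2 was higher with TCDD, with 31.1 to 38.7 CPM in null against 20.1 to 22.3 CPM in wild-type libraries (0.73 ± 0.10, adjusted p = 4.09e-05), and not called with DMSO (0.25 ± 0.10, adjusted p = 0.086). COX4I1, the widely expressed isoform, had 326 to 368 CPM in null TCDD and 335 to 344 CPM in wild-type TCDD libraries, with fold changes of 0.01 ± 0.06 with TCDD and -0.05 ± 0.06 with DMSO.

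The COX8 isoforms were called in opposite directions between genotypes with TCDD. The gene cox8b, whose mammalian relative is expressed in muscle, had 5.81, 4.17, 3.66 and 4.4 CPM in null TCDD, against 2.67, 2.45 and 2.52 CPM in wild-type TCDD libraries (0.82 ± 0.18, adjusted p = 0.00158). With DMSO the genotypes overlapped fully (0.00 ± 0.17, adjusted p = 0.991). The gene cox8a had 164, 152, 150 and 150 CPM in null TCDD, against 188, 182 and 185 CPM in wild-type TCDD libraries (-0.27 ± 0.06, adjusted p = 0.0019), and was also lower with DMSO (-0.22 ± 0.06, adjusted p = 0.0104).

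Other isoform pairs of complex IV had 1 called member. The gene cox6b1 was higher with TCDD (0.45 ± 0.11, adjusted p = 0.00579; 0.17 ± 0.11 with DMSO), and cox6b2 was at -0.03 and -0.09 without a call. COX5A was lower with TCDD (-0.22 ± 0.06, adjusted p = 0.00569; -0.15 ± 0.06, adjusted p = 0.0513 with DMSO), and cox5aa was at 0.00 in both. The difference between members of a pair was not tested. Of the low copies that share a symbol, COX6A1 (ENSDARG00000054588) was lower in both exposures (-1.06 ± 0.38, adjusted p = 0.0409 with TCDD; -1.47 ± 0.30, adjusted p = 0.00127 with DMSO) and COX5B (ENSDARG00000068738) with DMSO (-0.69 ± 0.20, adjusted p = 0.014). How alike the copies are, and whether reads were assigned to the right one, was not tested, so these calls are uncertain. The copies cox6a1 (ENSDARG00000022438) and COX5B (ENSDARG00000015978) were not called.

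The NDUFA4 family, once assigned to complex I and since placed with complex IV in mammals, was led by a single gene. The gene ndufa4b had 176, 131, 139 and 153 CPM in null TCDD, against 91, 81.5 and 83.4 CPM in wild-type TCDD libraries, and 157, 130, 132 and 154 CPM in null DMSO, against 98.3, 85.1 and 82.8 CPM in wild-type DMSO libraries. All 8 null libraries were above all 6 wild-type libraries (0.81 ± 0.10, adjusted p = 2.31e-05 with TCDD; 0.69 ± 0.10, adjusted p = 0.000137 with DMSO). NDUFA4 had 192 to 224 CPM in null TCDD and 198 to 199 CPM in wild-type TCDD libraries, with no call (0.06 ± 0.06 with TCDD; 0.04 ± 0.06 with DMSO). NDUFA4L2, a relative induced by low oxygen in mammals, was higher with DMSO (0.38 ± 0.13, adjusted p = 0.0378, called in 6 of 15 alternatives) and not called with TCDD (0.20 ± 0.13). COX7A2L, which takes part in joining complexes III and IV in mammals, was not called.

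**Figure D4:**
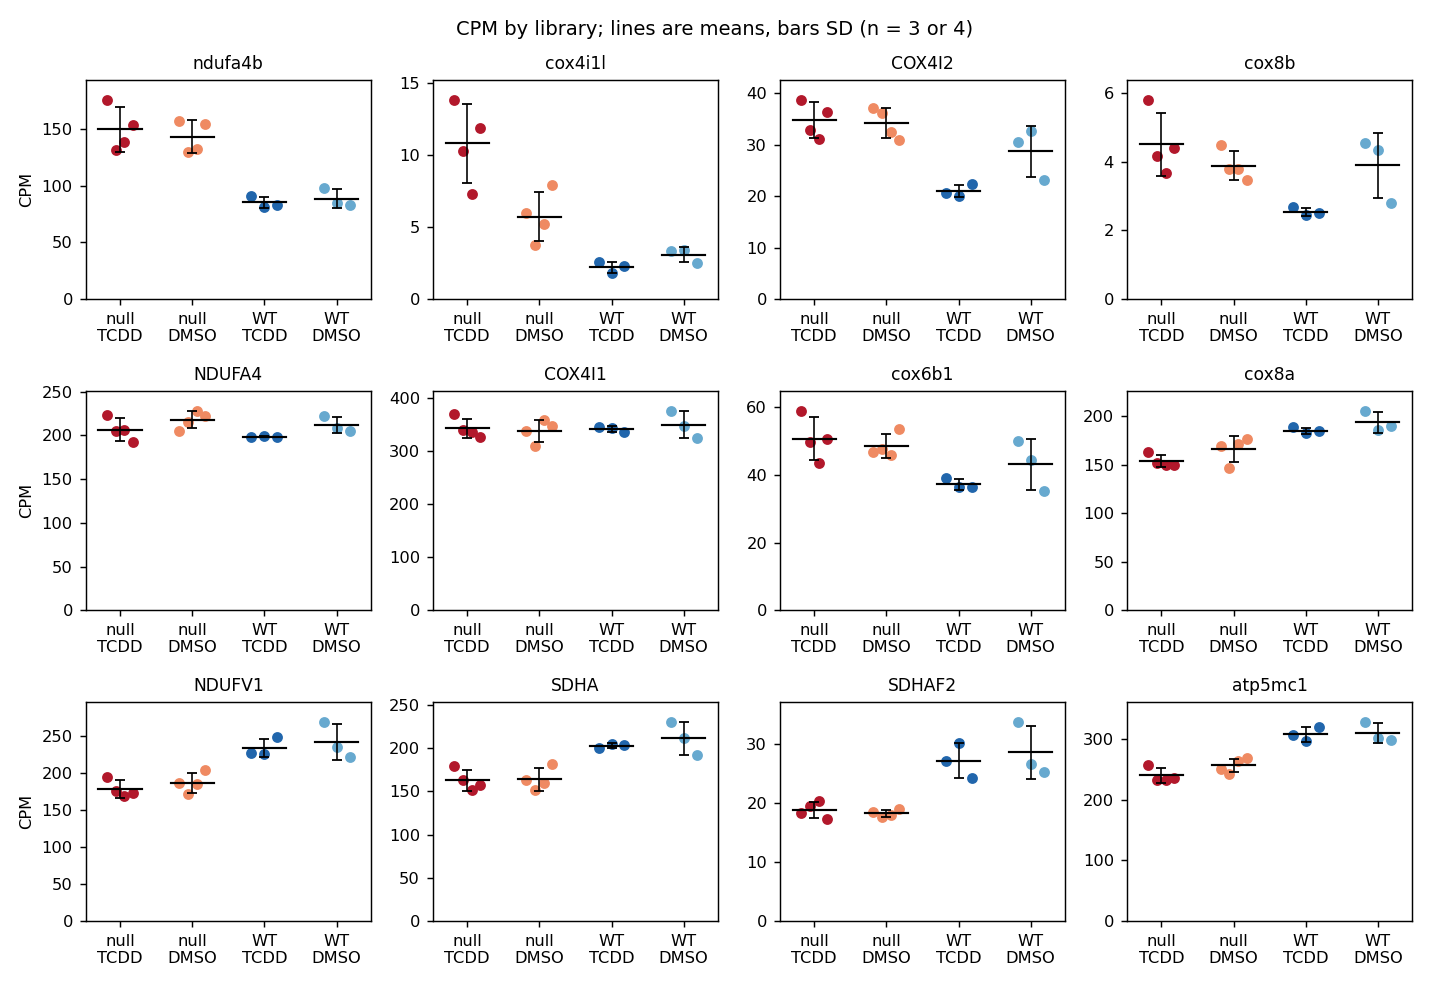
CPM (y axis, from 0) of 12 members in each library by group; lines are means and bars SD (n = 4, 4, 3 and 3). For ndufa4b all 8 null libraries (130 to 176 CPM) lie above all 6 wild-type libraries (81.5 to 98.3 CPM), and for SDHAF2 all 8 (17.2 to 20.3 CPM) lie below all 6 (24.1 to 33.6 CPM).

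In ATP synthase the called genes were lower, 4 of 18 with TCDD and 3 of 18 with DMSO. These were 22.2% and 16.7%. Of all genes, 25.8% and 21.6% were called, 13.1% and 11.7% lower. The gene atp5mc1, which encodes the c subunit of the rotor ring, had 257, 232, 233 and 236 CPM in null TCDD, against 305, 296 and 320 CPM in wild-type TCDD libraries, and 251, 242, 263 and 267 CPM in null DMSO, against 327, 301 and 297 CPM in wild-type DMSO libraries. Null and wild-type libraries did not overlap (-0.36 ± 0.06, adjusted p = 5.95e-05 with TCDD; -0.27 ± 0.06, adjusted p = 0.00139 with DMSO). Of the other genes for the same protein, ATP5MC3 was lower in both (-0.21 ± 0.06, adjusted p = 0.00618 with TCDD; -0.17 ± 0.06, adjusted p = 0.0303 with DMSO) and atp5mc3b was not called (0.00 and -0.08).

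Further out in the enzyme, atp5meb, for the e subunit, was lower in both (-0.18 ± 0.06, adjusted p = 0.0452 with TCDD; -0.25 ± 0.06, adjusted p = 0.00738 with DMSO), and its paralog atp5mea was not called. ATP5PD, a subunit of the peripheral stalk, was lower with TCDD (-0.17 ± 0.06, adjusted p = 0.0456) and not called with DMSO (-0.12 ± 0.06). ATP5F1B and ATP5F1A had the highest counts of all members, with means over libraries of 1273 CPM for ATP5F1B and 999 CPM for ATP5F1A. Neither was called (-0.14 and -0.16 with TCDD; -0.15 and -0.18 with DMSO), nor were ATP5F1C, ATP5PB, ATP5PO or the ATP synthase inhibitors.

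Other genes of the pathway were followed as lists. Of 34 assembly factors whose symbols lie outside the prefixes, 1 was higher and 17 lower in null than in wild-type embryos with TCDD, and 0 were higher and 14 lower with DMSO (medians -0.20 and -0.20). Those with the smallest adjusted p included the copper-delivery factors cox17 (-0.93 ± 0.11 with TCDD, -0.82 ± 0.11 with DMSO), COX11 (-0.56 ± 0.09 and -0.61 ± 0.09) and, with TCDD, SCO1 (-0.76 ± 0.11), with COA3 (-0.42 ± 0.07 and -0.36 ± 0.07) and, with DMSO, uqcc3 (-0.49 ± 0.10). Their shares lower, 17 and 14 of 34, can be read beside 19 and 16 of the 104 members and beside 13.1% and 11.7% of all genes; the difference between the lists was not tested.

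The electron carrier cytochrome c, cycsb, was lower in both exposures (-0.57 ± 0.06, adjusted p = 5.3e-07 with TCDD; -0.50 ± 0.06, adjusted p = 3.85e-06 with DMSO). In its list of 14 carrier and adenine nucleotide exchange genes, 0 were higher and 3 lower with TCDD (also ETFDH at -0.30 and ETFA at -0.28). With DMSO 1 was higher (COQ7, a gene of ubiquinone synthesis, at 0.42) and 2 were lower (also ETFA at -0.30). In each exposure 21.4% of the list was called, against 25.8% of all genes with TCDD and 21.6% with DMSO. The tricarboxylic acid cycle list also holds genes of the pyruvate dehydrogenase complex, which feeds the cycle (pdha1a, pdha1b and DLAT among them). Of its 20 genes, 7 were lower with TCDD and 5 with DMSO, none higher. These were 35% and 25%, against 13.1% and 11.7% of all genes. Leading were pdha1a (-0.24 and -0.19), OGDH (-0.23 and -0.19) and SUCLG2 (-0.37 and -0.32), with DLAT (-0.17) in the TCDD comparison and pdha1b (-0.80) in the DMSO comparison. All 20 had negative fold changes in both exposures.

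Mitochondrial ribosome genes were lower in 11 of 27 with TCDD and 6 of 27 with DMSO, none higher. These were 40.7% and 22.2%, against 13.1% and 11.7% of all genes. MRPL12 led (-0.50 ± 0.07 in both). MRPL16, MRPS5 and MRPL4 (-0.23, -0.28 and -0.26) were next with TCDD, and MRPL2, MRPL16 and MRPS12 (-0.31, -0.22 and -0.26) with DMSO. In the list of 14 biogenesis and transcription genes, the share lower with TCDD, 14.3%, was near the 13.1% of all genes (2 genes, NRF1 at -0.28 and ESRRA at -0.22), and with DMSO it was 21.4% against 11.7% (3 genes, POLG at -0.44, ESRRA at -0.23 and tfb2m at -0.22). Uncoupling and antioxidant genes of mitochondria had 1 of 9 higher (ucp3 at 1.18) and 4 lower with TCDD, and 0 higher and 6 lower with DMSO. Their shares lower were 44.4% and 66.7%, against the same 13.1% and 11.7% of all genes. SOD2 (-0.49 and -0.52), TXN2 (-0.31 and -0.27) and UCP2 (-0.55 and -0.63) were lower in both, and gpx4a (-0.78) was lower with DMSO. No gene of these lists was called with TCDD in either genotype.

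The 13 subunits encoded by mitochondrial DNA, the partners of the nuclear subunits in complexes I, III, IV and V, were lower in null embryos in 3 cases with TCDD (23.1% of them, against 13.1% of all genes), mt-nd4l (-0.21 ± 0.06, adjusted p = 0.00627), mt-atp8 (-0.20 ± 0.05, adjusted p = 0.00858) and MT-ND1 (-0.22 ± 0.06, adjusted p = 0.00923), and with DMSO none was called. Their median was -0.08 with TCDD and 0.01 with DMSO. The libraries did not record strand and mitochondrial genes are transcribed from both strands, so overlapping reads from opposite strands cannot be separated. How reads in genes that overlap on the same strand were assigned is not stated in the sources used here. Their summed level was 35389 to 37349 CPM in null TCDD, 35798 to 37067 CPM in null DMSO, 35842 to 39118 CPM in wild-type TCDD and 34591 to 38534 CPM in wild-type DMSO libraries, which overlapped.

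**Figure D5:**
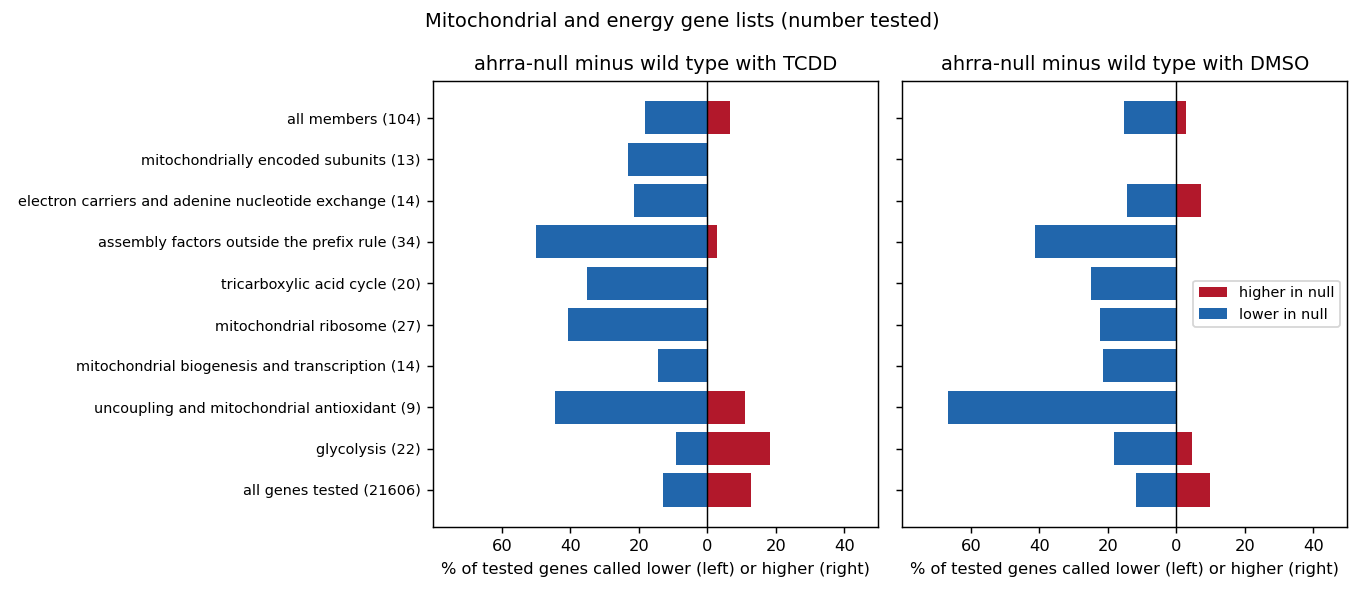
Percentage of tested genes called higher (right of 0) or lower (left of 0) in ahrra-null than in wild-type embryos, with TCDD (left panel) and with DMSO (right panel), for the 104 members, 8 related lists and all genes tested. The assembly factors outside the prefixes (17 and 14 of 34 lower) and the mitochondrial ribosome (11 and 6 of 27 lower) lie further left than the members (19 and 16 of 104 lower). So do the tricarboxylic acid cycle (7 and 5 of 20 lower) and the uncoupling and antioxidant list (4 and 6 of 9 lower).

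Markers of several tissues were also followed as lists, and some lists had calls in a comparison while others had none. Their part in the results was not tested, and none was at 0 in every library. Where a listed symbol was not found, its final paralog letter or number was dropped, and every identifier with the shorter symbol was counted. The TNNT2, TNNI2 and SLC4A1 copies entered in this way, and whether each copy is a marker of its tissue was not checked. Beside them, 25.8% of all genes were called between genotypes with TCDD and 21.6% with DMSO. With TCDD against DMSO, 1.18% of all genes were called in null and 0.856% in wild-type embryos. Of 5 liver genes, 2 were lower in null embryos with TCDD (FGB and serpina1) and 4 with DMSO (FGB, serpina1, fabp10a and apoa2), and their summed level was 83.3 to 158 CPM in null TCDD, 156 to 199 CPM in null DMSO, 162 to 177 CPM in wild-type TCDD and 180 to 402 CPM in wild-type DMSO libraries. Of 6 heart muscle genes, 3 were higher in null embryos with TCDD (2 TNNT2 copies and MYL7), and none was called with DMSO. With TCDD against DMSO, 1 was lower in null (nppa) and 3 in wild-type embryos (nppa and 2 TNNT2 copies), with summed levels of 17.7 to 27.5, 24.3 to 29.6, 15.3 to 19.0 and 26.3 to 34.0 CPM in null TCDD, null DMSO, wild-type TCDD and wild-type DMSO libraries.

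Of 14 fast muscle genes, 5 were higher and 1 lower in null embryos with TCDD, led by atp2a1, a TNNI2 copy, myhz1.1 and pvalb2, and 2 were higher and 2 lower with DMSO (atp2a1 and 3 TNNI2 copies), with sums of 54714 to 68341, 58642 to 70812, 53501 to 55071 and 55377 to 65695 CPM in the same order of groups. Photoreceptor genes had 0 of 6 called with TCDD and 2 lower with DMSO (PDE6C and GNAT1), with sums of 640 to 966, 561 to 1120, 961 to 1270 and 846 to 2128 CPM. Neuron genes had 1 of 5 higher and 1 lower with TCDD (sncb and gap43) and none called with DMSO. Slow muscle genes had none of 4 called in either exposure. The sums of these 2 lists, in the same order of groups, were 1882 to 1973, 1819 to 1930, 1838 to 1857 and 1834 to 1871 CPM for neurons and 731 to 939, 707 to 931, 692 to 783 and 737 to 1036 CPM for slow muscle. The 3 erythroid genes tested were alas2 and 2 SLC4A1 copies, with no globin gene among them. Between genotypes, alas2 was higher in null embryos in both exposures and the 2 SLC4A1 copies were lower with DMSO. In null embryos alas2 was lower with TCDD than with DMSO. The sums of the 3 genes, in the same order of groups, were 63.9 to 81.7, 81.2 to 93.1, 63.2 to 67.01 and 59.6 to 70.4 CPM.

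Of the 104 members, 89 were matched by symbol to the RefSeq table of the GRCz12tu assembly, and 3 of these lie on the chromosome of ahrra: cox4i1l, cox6b1 and NDUFB4. Both cox4i1l and cox6b1 were higher in null embryos with TCDD, while NDUFB4 was at 0.02 with TCDD and 0.01 with DMSO without a call. Among the 403 tested genes on that chromosome, 26.8% were called with TCDD and 23.1% with DMSO, against 26.4% and 21.9% on the others.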

How the data were processed

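Gene counts per library were deposited by the authors as raw, whole-number counts, 1 table a library. Per the submitters' processing notes, cutadapt, TopHat2, SAMtools, HTSeq and edgeR were used with the GRCz10 build; the sources used here give neither their versions nor their roles. Per the labels' protocols, total RNA was isolated and the libraries were unstranded.

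From these counts, genes with low counts were set aside with edgeR's filterByExpr (10499 of 32105, leaving 99.9% of counts), TMM scaling was applied, and a quasi-likelihood model with 1 mean for each of the 4 groups was fitted to all 14 libraries (R 4.3.3, edgeR 4.0.16), giving 5 contrasts with Benjamini-Hochberg adjustment over all 21606 genes. The SE of a contrast was derived from its F statistic, as |log2 fold change|/√F. Alternatives used DESeq2 1.42.0, limma 3.58.1 (voom with quality weights), sva 3.50.0 (1 surrogate variable), other scalings and filters, the compared libraries alone, and each library left out in turn. The code was tested on simulated data.

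Named members were all called ones, the 5 highest and 5 lowest fold changes of each comparison of groups, the 8 with most reads, and the paralogs of these (53 in all). In other lists the called genes were named, or the 4 with the smallest adjusted p. Members, lists and tests were chosen with earlier results of these data known. Symbols came from a table of Ensembl identifiers, which named 26269 of the genes. Depth was 16852240 to 23081186 counts a library, and the common biological coefficient of variation was 7.19%. A further marker list is not reported here.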

Additional observations from a re-analysis of the deposited data

Results flagged for a closer look

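In 106 groups of 4 libraries tested among the named members, a single library stood apart from the other 3 in 4 groups, by the ratio of its gap to the whole range; chance alone gives about 1 group in 20. Null TCDD replicate 13 was high for 3 genes. NDUFA10 had 137 CPM there and 113 to 116 CPM in the other null TCDD libraries, atp5mc1 had 257 CPM, against 232 to 236 CPM elsewhere in the group, and ndufa9b had 3.13 CPM, against 1.72 to 1.90 CPM. COX7A2L was low in null DMSO replicate 9, with 47.9 CPM, against 52.2 to 52.5 CPM in the other null DMSO libraries. Without null TCDD replicate 13 the number of members called between genotypes with TCDD was 33, of which 24 were among the 26 reported.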

How the results depend on the processing

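Counts of called members with TCDD against DMSO in null embryos were 0 as reported and 1 with RLE scaling, upper-quartile scaling, DESeq2, voom, a filter of 1 CPM or a surrogate variable, and 0 to 1 with each library left out. In wild-type embryos they were 0 as reported, 1 with RLE scaling, DESeq2 or the surrogate variable, 2 with voom, and 0 to 2 with each library left out. Between genotypes with TCDD the count was 26, and 17 to 33 with each library left out. It was highest with voom, at 34, which included the 26 reported. Between genotypes with DMSO it was 19, and 9 to 25 with each library left out. With the surrogate variable, which was itself higher in most wild-type than in most null libraries, the count was 12. Of these, 7 were among the 19, and the members' median was 0.0068 in place of -0.09. With voom the count was 22, of which 15 were among the 19. The interaction gave 0, and 0 to 1 with each library left out. The cause of these changes was not tested. No result reversed among those with a call. For the 53 named members, 4129 values under an alternative stayed on the same side of the threshold, 50 passed it newly and 114 no longer passed it. Most of the 4129 belong to a gene and comparison without a call, so they do not measure how stable the calls were. Only the 26 calls with TCDD and the 19 with DMSO between genotypes could be lost. Of these, 15 of the 26 and 6 of the 19 held under all 15 alternatives. Values without a call in either analysis could change sign and still be counted among the 4129. No paired analysis was possible because the labels give no clutch or pairing. The replicate numbers, which the groups do not share, do not show whether libraries of different groups were related.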

Other observations

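Glycolysis, which makes ATP without mitochondria, was followed as a list of 22 genes. Between genotypes with TCDD 4 were higher and 2 lower in null embryos, and with DMSO 1 was higher and 4 lower, so that 27.3% and 22.7% were called, near the 25.8% and 21.6% of all genes. HK2, a hexokinase, was lower in both exposures (-1.10 ± 0.13, adjusted p = 4.57e-06 with TCDD; -0.96 ± 0.13, adjusted p = 2.81e-05 with DMSO), as was HK1 (-0.22 ± 0.07 and -0.37 ± 0.07). With TCDD PFKL (0.30 ± 0.06, adjusted p = 0.000597) and GAPDH (0.45 ± 0.11, adjusted p = 0.0055) were higher, and with DMSO PKM (-0.48 ± 0.09, adjusted p = 0.00155) and pgam1a (-0.46 ± 0.11, adjusted p = 0.00826) were lower. TCDD gave no edgeR call in this list in either genotype, with 3 higher and 1 lower in null embryos and 5 lower in wild-type embryos at an unadjusted p under 0.05 (10.9% and 8.35% of all genes), and the interaction gave none, with 6 positive at that level (5.17% of all genes).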
